A study of Mus musculus with 6 samples.

Results

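The primitive erythroid genes described here are 36 genes of the first red blood cells of the mouse embryo, in 5 groups by role: 7 globins, 9 genes of heme synthesis and iron uptake, 4 of cytosolic enzymes and a globin chaperone, 9 of the cell membrane, and 7 of transcription factors and signalling. Probes were matched to members through the RefSeq accession of each array probe. The list itself was chosen with earlier results of these data known, so its counts are descriptions. Of the 36 genes, 34 had a named probe and all 34 passed the filter on dim signals, out of 19795 genes tested in all. Hbb-b1, an adult beta chain, and Ahsp, the chaperone of free alpha globin, were matched to no probe and have no value here. Gene names given with the probes were not used, and the reference gene list had no entry for Ahsp. The array may therefore still carry probes for them. A probe named Hbb-bt, an adult beta-globin gene near-identical to Hbb-b1 and not among the 36, changed by -0.11 ± 0.42 on the log2 scale (Arid3b-null minus wild type, SE, limma adjusted p = 0.866). RNA came from the trunk of embryos at embryonic day 9.5, a piece that runs from the otic vesicle back to somite 15 and includes the forelimbs. Wild-type embryos were compared with Arid3b-null embryos, which lack the ARID-domain transcription factor Arid3b; strain and allele are not given in the sources used here. Each group had 3 one-colour arrays, and each array held pooled RNA of 4 embryos, so that the spread within a group is a spread between pools.

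Primitive erythroid cells form in the blood islands of the yolk sac and enter the embryo's circulation while still nucleated, so a dissected trunk contains them as blood. They make embryonic globins (epsilon-y and beta-h1 with zeta), which join heme to form hemoglobin, and their programme is driven by the transcription factors Gata1, Tal1 and Klf1. Gata1 binds words of the form GATA, and Klf1 binds CACCC boxes in promoters and enhancers of globin, heme and membrane genes.

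Values are log2 of the processed signal relative to the array's 75th percentile (0 is that percentile), which lay between 611 and 844 signal units on the 6 arrays. No spot was saturated. Each of the 3 slides carried 1 wild-type array in its first position and 1 Arid3b-null array in its second, so position on the slide and genotype cannot be told apart. Arid3b itself read 2.18, 2.57 and 1.97 in wild type and 0.54, 0.65 and 0.46 in Arid3b-null. Its groups did not overlap, and it changed by -1.69 ± 0.17 on the log2 scale (SE, limma adjusted p = 0.00154). This was the brightest of its 3 tested probes. The dimmer ones changed by -1.90 ± 0.18 and -3.23 ± 0.20 (SE, limma p adjusted over all tested probes 0.0013 and 0.000379). Each of them was well above background on 2 Arid3b-null arrays. All 17 marker genes of neural tube, somite and limb mesenchyme, and surface ectoderm passed the filter on dim signals. In whole trunks, fewer cells of a type and less RNA per cell cannot be told apart.

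In Arid3b-null trunks 10 erythroid genes were lower and 0 were higher by limma at an adjusted p below 0.05, and 24 did not pass. At an unadjusted p below 0.05 there was 1 higher gene, Ppox, and of the globins Hba-x and Hba-a1 were lower. The 10 were the transcription genes Klf1, Cited4, Gata1 and Tal1, the membrane genes Epb42, Slc4a1, Gypc and Tspan33, the enzyme gene Bpgm, and Urod of heme synthesis. None of the 6 measured globins passed. The lower genes are 29.4% of those tested, where 12.9% of all tested genes were lower and 13.6% higher. The median log2 change over the 34 genes was -0.34, beside -0.04 over all tested genes, and 30 of the 34 changes were negative. All 3 Arid3b-null arrays lay below all 3 wild-type arrays for 20 of the 34 genes and above them for 1. Over all tested genes these shares were 23.1% and 23.0%. Without each array in turn, 7 or 8 members were lower and 0 higher.

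**Figure D1:**
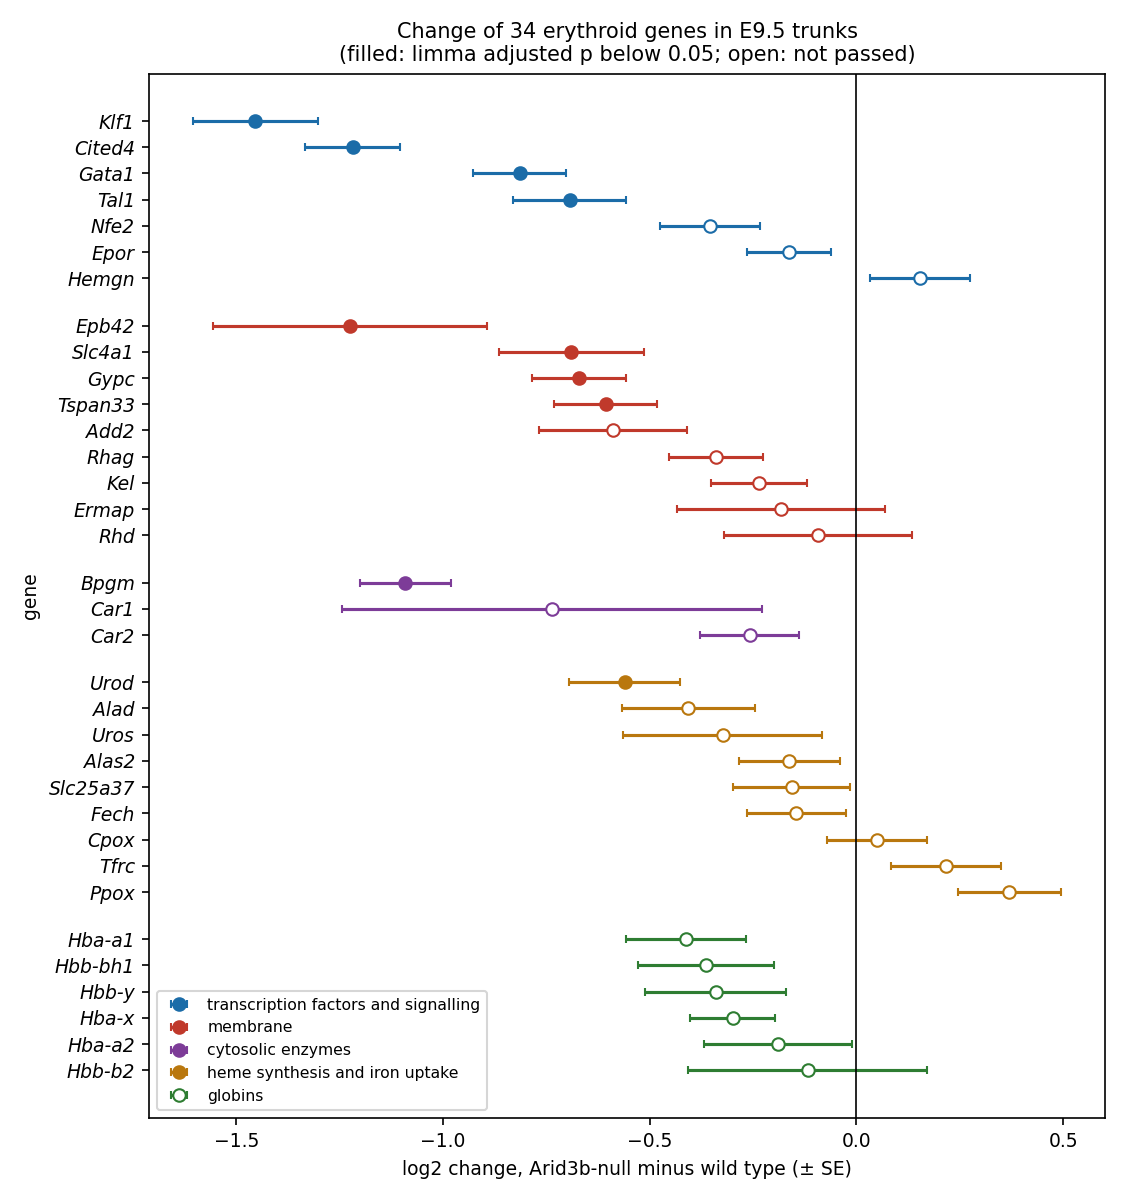
Log2 change (Arid3b-null minus wild type, ± SE of the limma fit, 3 arrays a group) of the 34 measured erythroid genes, grouped by role; filled points passed at an adjusted p below 0.05 and open points did not. The filled points run from -1.45 for Klf1 to -0.56 for Urod, and all 6 globins are open, between -0.41 and -0.12.

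Among transcription factors and signalling genes 4 of 7 were lower (median log2 change -0.69), where 12.9% of all tested genes were lower. Klf1, the zinc finger activator of erythroid genes, read -0.51, -0.53 and -0.40 in wild type and -2.09, -2.08 and -1.63 in Arid3b-null. The lowest wild-type array stood above the highest Arid3b-null array by more than the range within either group. The log2 change was -1.45 ± 0.15 (SE, limma adjusted p = 0.00168), leaving 36.5% of the wild-type signal, and within slides it was -1.58, -1.54 and -1.24. Gata1, the GATA factor that red cells need to mature and that megakaryocytes also make, read -0.26, -0.11 and -0.10 in wild type and -1.08, -0.84 and -0.99 in Arid3b-null. Again every Arid3b-null array was low. The change was -0.82 ± 0.11 (SE, limma adjusted p = 0.00418), leaving 56.8%.

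Cited4, which encodes a coactivator that binds CBP and p300, read 1.99, 2.17 and 1.99 in wild type and 0.89, 0.70 and 0.91 in Arid3b-null. The groups did not overlap, and the change was -1.22 ± 0.11 (SE, limma adjusted p = 0.00129). Tal1, the basic helix-loop-helix factor at the base of the blood programme, also made by endothelium and by some neurons, read -0.15, -0.03 and 0.04 in wild type and -0.75, -0.53 and -0.95 in Arid3b-null, a change of -0.69 ± 0.14 (SE, limma adjusted p = 0.0135). With dim probes kept in the test Tal1 was not called (adjusted p = 0.0590). The other 3 genes of the group did not pass. Nfe2, a bZIP activator of globin genes, changed by -0.35 ± 0.12 (SE, adjusted p = 0.0749) and Epor, the erythropoietin receptor, by -0.16 ± 0.10 (adjusted p = 0.279), both with every Arid3b-null array below every wild-type array. Hemgn, a nuclear protein of blood precursors, stood at 3.26 ± 0.11 (SD, n = 3) in wild type and 3.41 ± 0.14 in Arid3b-null, with overlapping arrays.

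The sequences 250 bases upstream of the start of the 4 most strongly lower genes that have a promoter in the RefSeq table, apart from the dim Epb42, are shown with those of 2 embryonic globins that did not pass, since erythroid promoters are known for CACCC boxes and GATA words. All are from RefSeq, build GRCm38.p6, 5′ to 3′ on the gene's strand, and capitals mark CCNCNCCC (a CACCC-type word), AGATAA or TGATAA on either strand.
Klf1 (chr8:84901732-84901981, plus strand): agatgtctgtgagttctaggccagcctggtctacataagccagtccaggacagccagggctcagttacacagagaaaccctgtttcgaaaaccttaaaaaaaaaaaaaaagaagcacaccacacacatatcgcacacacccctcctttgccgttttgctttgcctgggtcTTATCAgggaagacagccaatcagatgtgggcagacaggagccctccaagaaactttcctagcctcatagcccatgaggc
Cited4 (chr4:120666313-120666562, plus strand): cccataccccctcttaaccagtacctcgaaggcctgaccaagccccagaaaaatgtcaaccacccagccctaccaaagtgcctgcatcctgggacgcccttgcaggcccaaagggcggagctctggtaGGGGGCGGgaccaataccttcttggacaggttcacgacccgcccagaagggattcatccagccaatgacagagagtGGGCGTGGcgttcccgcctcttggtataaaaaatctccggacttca
Bpgm (chr6:34476106-34476355, plus strand): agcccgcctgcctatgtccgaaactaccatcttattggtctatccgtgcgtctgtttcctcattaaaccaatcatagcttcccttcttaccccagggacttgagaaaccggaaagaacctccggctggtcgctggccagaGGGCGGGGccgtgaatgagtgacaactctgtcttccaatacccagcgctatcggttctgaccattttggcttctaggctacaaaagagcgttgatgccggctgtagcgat
Gata1 (chrX:7967911-7968160, minus strand): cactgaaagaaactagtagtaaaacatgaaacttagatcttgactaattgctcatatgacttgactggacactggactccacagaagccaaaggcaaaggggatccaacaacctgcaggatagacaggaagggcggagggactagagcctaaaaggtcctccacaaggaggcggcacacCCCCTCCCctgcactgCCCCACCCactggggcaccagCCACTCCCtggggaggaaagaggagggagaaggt
Hbb-y (chr7:103853208-103853457, minus strand): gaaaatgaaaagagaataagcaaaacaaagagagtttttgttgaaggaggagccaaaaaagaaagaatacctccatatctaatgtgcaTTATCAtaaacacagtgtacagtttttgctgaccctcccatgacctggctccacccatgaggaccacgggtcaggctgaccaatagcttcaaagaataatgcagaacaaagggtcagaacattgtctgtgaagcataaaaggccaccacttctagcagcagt
Hba-x (chr11:32276350-32276599, plus strand): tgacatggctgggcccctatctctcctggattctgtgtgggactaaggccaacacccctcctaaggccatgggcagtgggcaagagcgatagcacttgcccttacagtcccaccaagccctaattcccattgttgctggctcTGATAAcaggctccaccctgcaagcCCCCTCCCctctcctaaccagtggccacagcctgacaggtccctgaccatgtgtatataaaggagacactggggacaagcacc
The Klf1 sequence holds a TGATAA on the opposite strand that begins 80 bases before the start and no CCNCNCCC. Gata1 holds 3 CCNCNCCC words and neither GATA word, Cited4 holds 2 CCNCNCCC and Bpgm 1. Hbb-y holds a TGATAA alone, and Hba-x holds a TGATAA and a CCNCNCCC. Promoters were in the table for 25 of the 34 tested genes. Among the 8 lower genes with one, 5 hold CCNCNCCC and 3 a GATA word (AGATAA or TGATAA) in at least 1 promoter, and among the 17 that did not pass, 8 and 13 do. Over 32851 promoters of the same length 45.9% hold CCNCNCCC and 16.6% a GATA word. These matches describe letters in the window only. CCNCNCCC overlaps itself in runs of G or C, and it also matches words without CACCC, such as GGGCGGGG in Bpgm. The plain letters CACCC were not searched for. They stand unmarked in the Klf1, Cited4, Hbb-y and Hba-x sequences, so a window without CCNCNCCC may still hold a CACCC box.

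Membrane genes were the other group with several lower members, 4 of 9 (median log2 change -0.59), where 12.9% of all tested genes were lower. All 9 changes were negative. The 4 became 2 without wild type replicate 2, wild type replicate 3 or Arid3b-null replicate 1 and with the deposited values, and 1 with dim probes kept. Gypc, which encodes glycophorin C, an anchor of the spectrin skeleton at the membrane, read 1.69, 1.56 and 1.53 in wild type and 0.81, 1.06 and 0.90 in Arid3b-null. Every Arid3b-null array lay below every wild-type array. The change was -0.67 ± 0.11 (SE, limma adjusted p = 0.00816). Tspan33, a tetraspanin needed for red cell production, read 0.55, 0.58 and 0.86 in wild type and -0.04, 0.14 and 0.06 in Arid3b-null, a change of -0.61 ± 0.12 (SE, limma adjusted p = 0.0153) that was not called with dim probes kept in the test (adjusted p = 0.0663).

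Slc4a1, the anion exchanger band 3 of the red cell membrane, read 2.03, 2.30 and 2.44 in wild type and 1.34, 1.85 and 1.51 in Arid3b-null. All Arid3b-null values were low, though replicate 2 lay nearest to wild type. The change of -0.69 ± 0.17 (SE, limma adjusted p = 0.0296) was not called when wild type replicate 2 or 3 was left out (adjusted p = 0.0802 and 0.0811), nor when replicate 1 or 3 of Arid3b-null was (0.0796 and 0.0855). The authors' deposited values gave 0.0666, and keeping dim probes 0.0993. Epb42, a skeletal protein bound to band 3, had a dim probe that read -4.27, -4.37 and -3.58 in wild type and -5.95, -4.94 and -4.99 in Arid3b-null. Its low value in Arid3b-null replicate 1 and its high one in wild type replicate 3 widen the spread. The change was -1.23 ± 0.33 (SE, limma adjusted p = 0.0367). It was not called when any 1 of the 6 arrays was left out (adjusted p = 0.0540 to 0.0903), with the deposited values (0.0684) or with dim probes kept (0.108). Under normexp background correction it was -0.34 (adjusted p = 0.137).

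Among the other membrane genes, Add2, the beta adducin of the spectrin skeleton, stood just outside the threshold. It read -1.14, -1.10 and -1.14 in wild type and -2.10, -1.61 and -1.44 in Arid3b-null, with groups that did not overlap. Its change was -0.59 ± 0.18 (SE, limma adjusted p = 0.0523), and it passed under normexp (0.0412), under quantile normalization (0.0496) and without Arid3b-null replicate 3 (0.0427). Rhag and Rhd, of the Rh complex, changed by -0.34 ± 0.11 and -0.09 ± 0.23 (SE, adjusted p = 0.0700 and 0.789). Kel, the Kell blood group endopeptidase, changed by -0.24 ± 0.12 (adjusted p = 0.182). Ermap, an erythroblast membrane protein, had 3 probes that disagreed. The brightest changed by -0.18 ± 0.25 (SE) and did not pass, while the others changed by -0.67 ± 0.16 and -0.55 ± 0.15 and passed when adjusted over all tested probes (adjusted p = 0.0232 and 0.0355).

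Of the cytosolic genes Bpgm was lower. It encodes the mutase that makes 2,3-bisphosphoglycerate, the molecule that lowers the oxygen affinity of hemoglobin. Its probe read 1.24, 1.22 and 1.001 in wild type and 0.06, 0.11 and 0.01 in Arid3b-null. The Arid3b-null arrays lay close together and well below wild type. The change was -1.09 ± 0.11 (SE, limma adjusted p = 0.00156), leaving 46.9%, with -1.17, -1.11 and -0.99 within slides. Of the carbonic anhydrases, Car2 changed by -0.26 ± 0.12 (adjusted p = 0.160) with groups that did not overlap. Car1 was dim (1 Arid3b-null array had it well above background), and its values overlapped (change -0.74 ± 0.51, adjusted p = 0.327).

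**Figure D2:**
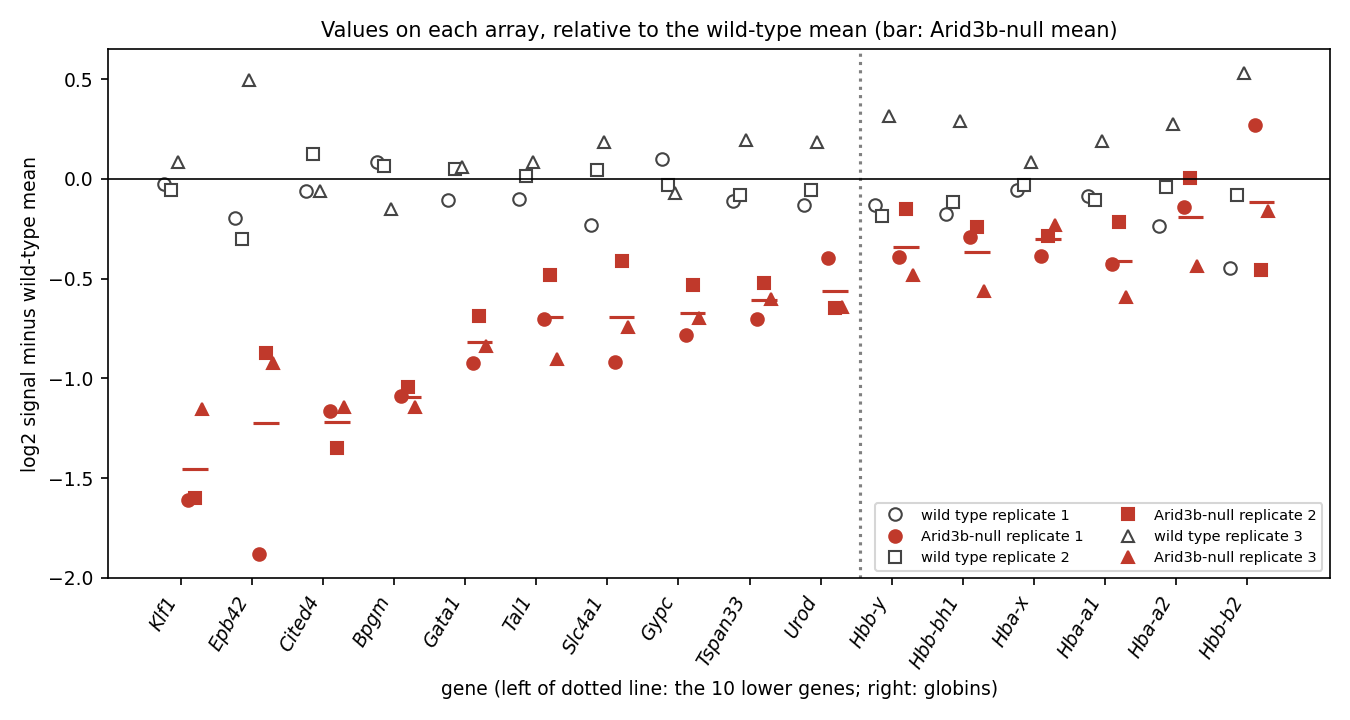
Log2 signal of each array minus the gene's wild-type mean, for the 10 lower genes (left of the dotted line) and the 6 measured globins (right); open symbols are wild type, filled red symbols Arid3b-null, one symbol shape per replicate number and slide, and red bars the Arid3b-null mean. For the 10 genes no red point reaches a wild-type point, while for Hbb-y, Hba-a2 and Hbb-b2 they overlap.

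In heme synthesis and iron uptake 1 of 9 genes was lower and 0 were higher (median log2 change -0.16). Over all tested genes 12.9% were lower, so this count is no more than the share of all genes. Urod, the uroporphyrinogen decarboxylase, read 3.96, 4.04 and 4.28 in wild type and 3.70, 3.45 and 3.45 in Arid3b-null, without overlap. The change was -0.56 ± 0.13 (SE, limma adjusted p = 0.0246), and with the replicate number, which is also the slide, as a block it did not pass (adjusted p = 0.0522). It also did not pass without any 1 of the wild-type arrays (0.0513, 0.0569 and 0.0610), without Arid3b-null replicate 2 or 3 (0.0733 each) or with dim probes kept (0.0930).

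The other steps of the pathway went both ways in small amounts, and none passed. Alas2, the erythroid enzyme of the first and rate-setting step, read 1.59, 1.72 and 1.91 in wild type and 1.49, 1.65 and 1.59 in Arid3b-null. These overlap, and the change of -0.16 ± 0.12 (SE, adjusted p = 0.367) has a 95% interval from -0.45 to 0.13. Alad, the next enzyme, changed by -0.41 ± 0.16 (adjusted p = 0.109), Uros by -0.32 ± 0.24 (0.363) and Fech, the ferrochelatase that inserts iron, by -0.15 ± 0.12 (0.410). Cpox was at 0.05 ± 0.12 (0.791). Ppox, the oxidase before ferrochelatase, was the only member with all Arid3b-null arrays above wild type, at 0.37 ± 0.13 (SE, adjusted p = 0.0722). Slc25a37, the mitochondrial iron importer mitoferrin, changed by -0.16 ± 0.14 (adjusted p = 0.450) and Tfrc, the transferrin receptor through which erythroblasts take up iron, by 0.22 ± 0.13 (0.276).

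The 6 measured globins all had negative changes and none passed (median -0.32). Hbb-y, the epsilon-like chain, read 8.08, 8.03 and 8.53 in wild type and 7.82, 8.06 and 7.73 in Arid3b-null. The groups overlap, since Arid3b-null replicate 2 lay above wild type replicate 2, and the change was -0.34 ± 0.17 (SE, adjusted p = 0.186, 95% interval -0.75 to 0.07). Another Hbb-y probe, with a wild-type mean of 8.05, changed by -0.18 ± 0.17 (SE, limma p adjusted over all tested probes 0.468). Hbb-bh1, the other embryonic beta-like chain, read 7.60, 7.66 and 8.06 in wild type and 7.48, 7.53 and 7.21 in Arid3b-null, a change of -0.36 ± 0.16 (adjusted p = 0.149, 95% interval -0.76 to 0.03). Wild type replicate 3 was the highest array for each of the 6 globins. Without it Hbb-y changed by -0.18 and Hbb-bh1 by -0.22.

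Hba-x, the zeta chain, read 6.68, 6.70 and 6.82 in wild type and 6.35, 6.45 and 6.50 in Arid3b-null. These did not overlap, but the change of -0.30 ± 0.10 did not pass (adjusted p = 0.0749). The alpha chains Hba-a1 and Hba-a2 changed by -0.41 ± 0.14 and -0.19 ± 0.18 (adjusted p = 0.0783 and 0.470). Hbb-b2, an adult beta chain, changed by -0.12 ± 0.29 (0.793), with values from -0.34 to 0.64 in wild type and -0.35 to 0.38 in Arid3b-null. Hba-a1 and Hba-a2 are near-identical copies, as are the adult beta genes, so a probe of one may read the other. Under quantile normalization Hbb-y, Hbb-bh1, Hba-x and Hba-a1 passed as lower (adjusted p = 0.0359, 0.0259, 0.0402 and 0.0278, changes -0.54, -0.54, -0.41 and -0.55), and Hba-a1 passed under normexp (0.0385). Median scaling called none of the 6, and Hba-a2 and Hbb-b2 passed under no alternative that measured them.

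The change of Klf1 was set against that of each globin within arrays, a comparison chosen after the values were seen. The Klf1 value minus the globin value was lower on all 3 Arid3b-null arrays than on all 3 wild-type arrays for each of the 6 globins, by 1.04 to 1.34 on the log2 scale. The two-sided exact permutation p was 0.1 for each (0.1 after Benjamini-Hochberg over the 6), the smallest that 3 arrays against 3 allow.

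Other genes of red cells, from lists that hold no member, went both ways. Over the 94 tested the median log2 change was -0.12, and 19 were lower and 16 higher. Of all tested genes 12.9% were lower and 13.6% higher, the shares to set beside the counts of each list. Of 27 further heme and iron genes 5 were lower and 2 higher, with 3 lower without wild type replicate 1 and with the deposited values, and 2 with dim probes kept. Alas1, the housekeeping form of the first heme enzyme, fell by 0.68 ± 0.11 (SE, log2, limma adjusted p = 0.00677) and Fam210b, a mitochondrial protein of erythroid heme synthesis, by 0.64 ± 0.10. Hmox1, the heme oxygenase that breaks heme down, rose from 0.36 ± 0.14 to 1.36 ± 0.15 (SD, n = 3, limma adjusted p = 0.00325), and Flvcr2, a transporter, rose by 1.33 ± 0.18. Of 24 further membrane genes 5 were lower and 6 higher. Without wild type replicate 1, and likewise with dim probes kept, 2 were lower and 4 higher; 3 were lower without wild type replicate 2, Arid3b-null replicate 1 or Arid3b-null replicate 3. Dmtn, the actin-bundling dematin of the red cell skeleton, fell by 0.84 ± 0.10, and Kcnn4, the calcium-gated potassium channel, by 0.86 ± 0.13. Cd47, a surface protein found on most cells, rose by 0.84 ± 0.11, and Sptb, beta spectrin, by 1.60 ± 0.27 from a dim probe that entered the test through Arid3b-null alone (1 wild-type array had it well above background). Sptb did not pass under normexp (adjusted p = 0.0814).

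Of 29 further transcription and signalling genes 7 were lower and 6 higher, and 4 and 4 with dim probes kept. Of the 7, Ikzf1 entered the test through wild type alone, being well above background on 2 Arid3b-null arrays. Its call is no independent sign of a fall. Myb, a factor of blood progenitors that also keeps cells of other tissues dividing, had a wild-type mean of -1.54 ± 0.07 (SD, n = 3) and an Arid3b-null mean of -3.46 ± 0.10, and fell by 1.92 ± 0.11 (SE, limma adjusted p = 0.000362). E2f2, a cell cycle factor of erythroblasts, fell by 0.97 ± 0.11, and Klf2, a Klf1 relative found also in endothelium, by 1.67 ± 0.22. Kit, the stem cell factor receptor of blood progenitors, melanoblasts and germ cells, rose by 1.13 ± 0.13. Gfi1b, Lmo2 and Ldb1, partners of Gata1 and Tal1, had values of -0.23 ± 0.16, 0.07 ± 0.12 and 0.30 ± 0.17 (SE) and did not pass; they were picked for their known link to Gata1 and Tal1 after their values were seen. Of 14 tested genes of maturing red cells 2 were lower and 2 higher. Bnip3l, the mitophagy receptor that clears mitochondria from red cells and is induced by low oxygen elsewhere, rose by 1.07 ± 0.12. The globin-like Hbq1a was called higher from a dim probe that entered the test through Arid3b-null alone (2 wild-type arrays had it well above background), and it was not called under normexp (adjusted p = 0.288). Gpx1 and Trim10 fell by 0.44 ± 0.12 and 0.57 ± 0.16, and lost their calls under 8 of 12 and 11 of 13 alternatives, Trim10 also with the replicate block (adjusted p = 0.0760).

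Markers of other cell types moved between the groups as well. Beside the counts of these lists stand the shares over all tested genes, 12.9% lower and 13.6% higher. Of 13 megakaryocyte and platelet genes 8 were higher and 0 lower (median log2 change 1.08). With the replicate block 1 was lower, and under normexp 6 were higher with a median of 0.42. Their summed level, in multiples of the 75th percentile, was 4.38 to 5.33 in wild type and 7.95 to 9.11 in Arid3b-null. With dim probes kept, 6 of the 13 were higher. Of the 8 higher genes, Gp5 entered the test through Arid3b-null alone (2 wild-type arrays had it well above background). Its call is no independent sign of a rise. Named after their values were seen, Pf4, the platelet factor, rose by 1.40 ± 0.19 and Itga2b, the alpha IIb integrin, by 1.63 ± 0.21 (SE, limma adjusted p = 0.00356 and 0.00316). Gata1, Tal1 and Nfe2 are made in that lineage too, so these genes read megakaryocytes as well as red cells. Of 13 macrophage and myeloid genes 7 were tested, 3 lower and 0 higher, and 5 were lower without Arid3b-null replicate 1. Of the 3, Tyrobp and Cx3cr1 entered the test through wild type alone, being well above background on 2 and 1 of the Arid3b-null arrays, so their count is no independent sign of a fall. C1qa, C1qc, Ptprc, Lyz2 and Spi1 were not well above background on all arrays of either group, and Cd68 had no named probe. The summed level of the 7 tested genes was 1.66 to 2.47 in wild type and 0.986 to 1.88 in Arid3b-null, which overlap. Most of it came from Csf1r, the brightest of the 7, which was not called by limma (adjusted p = 0.124).

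Of 13 genes of hepatic and yolk sac endoderm 8 were lower and 0 higher, with a summed level of 19.1 to 22.3 in wild type and 11.9 to 15.2 in Arid3b-null. The 8 became 5 without wild type replicate 2 and 4 with dim probes kept, and 1 gene was higher under normexp, under quantile normalization and without Arid3b-null replicate 3. Of the 8, Alb entered the test through wild type alone, being well above background on 2 Arid3b-null arrays. Its call is no independent sign of a fall. Of 13 endothelial genes 4 were higher and 0 lower, summed 34.6 to 38.5 in wild type and 36.3 to 41.9 in Arid3b-null, which overlap. Such a sum follows its brightest genes. Of the 13 endothelial changes 9 were positive and 4 negative. All Arid3b-null arrays lay above wild type for 4 of these genes and below for 1. The median over the 13 genes of the log2 value minus the gene's wild-type mean did not overlap. It was -0.03 to 0.01 in wild type and 0.23 to 0.32 in Arid3b-null. The 4 became 1 without wild type replicate 1, wild type replicate 3 or Arid3b-null replicate 2 and with dim probes kept, and 2 when replicate 2 of wild type or replicate 1 of Arid3b-null was left out, with median scaling, with the deposited values and with the replicate block. The summed level of the globins also overlapped between the groups, at 988 to 1324 in wild type and 798 to 1005 in Arid3b-null. The same median over the 6 measured globins did not overlap, at -0.15 to 0.28 in wild type and -0.46 to -0.23 in Arid3b-null. The summed level of the membrane members was 10.5 to 12.3 in wild type and 6.68 to 8.35 in Arid3b-null. Markers of the trunk's own tissues moved too. Of 6 neural tube genes 4 were lower and 0 higher (median log2 change -0.83), with a summed level of 10.3 to 11.3 in wild type and 4.55 to 4.94 in Arid3b-null. Named after their values were seen, the neuronal genes Elavl3 and Tubb3 fell by 2.80 ± 0.17 and 2.72 ± 0.20 (SE, limma adjusted p = 0.000391 and 0.000591). Sox2 and Pax6, the genes of this list that did not pass, changed by -0.02 ± 0.23 and -0.09 ± 0.13 (SE, limma adjusted p = 0.946 and 0.646). Of 5 surface ectoderm genes 3 were higher and 0 lower (median 0.86), summed 21.3 to 32.7 in wild type and 43.5 to 52.3 in Arid3b-null. Of 6 somite and limb genes 0 passed by limma, and 0 had an unadjusted p below 0.05, and their sums overlapped. The part of these other cell types in the erythroid values was not tested.

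**Figure D3:**
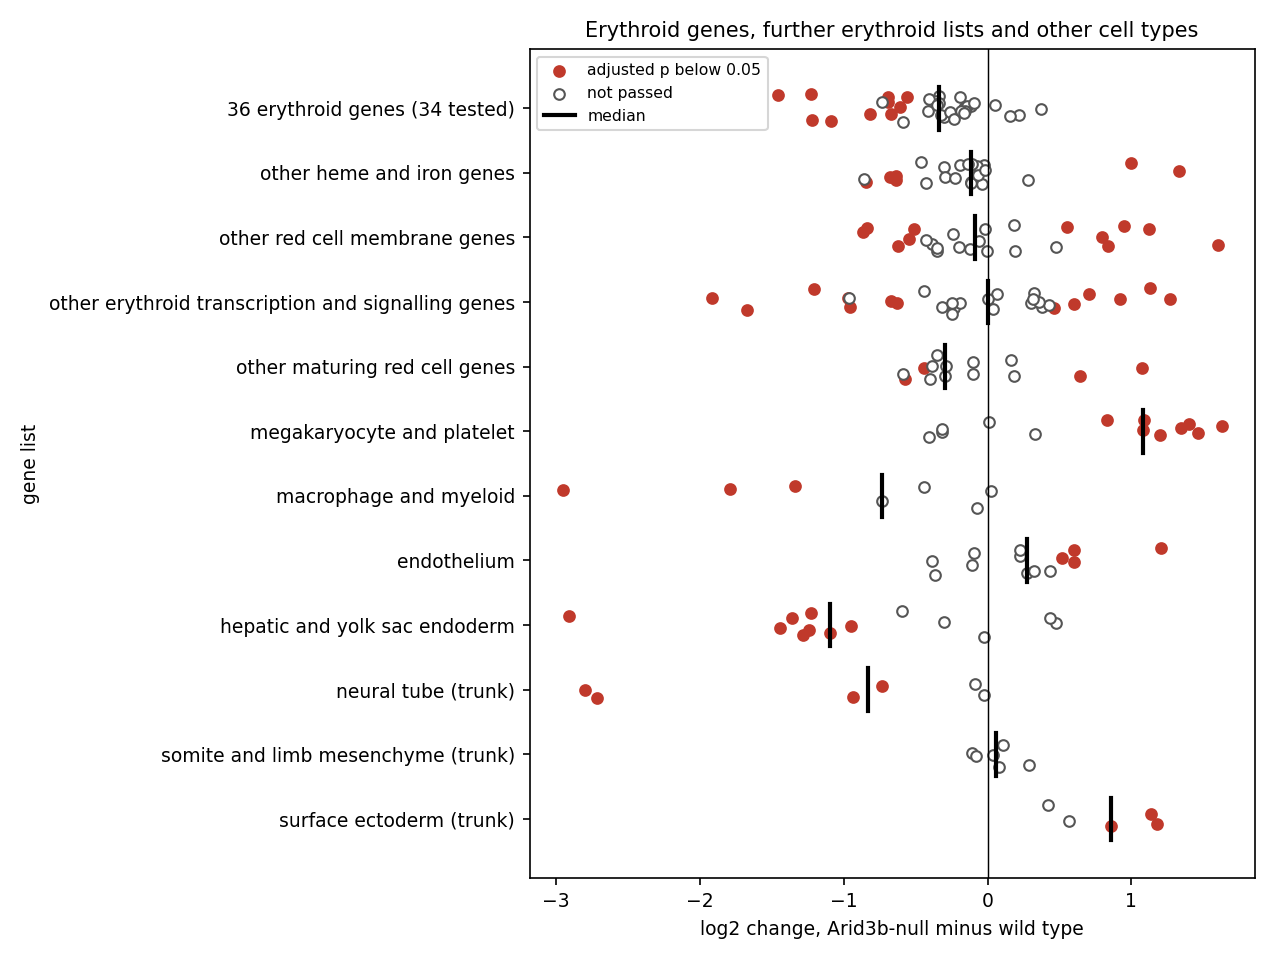
Log2 change (Arid3b-null minus wild type) of each tested gene in the erythroid set, 4 further erythroid lists and 7 lists of other cell types; red points passed at an adjusted p below 0.05, open points did not, and black bars are medians. The erythroid set has red points on the negative side only, with a median of -0.34, and the megakaryocyte and platelet list has them on the positive side only, with a median of 1.08.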

How the data were processed

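Per the labels' protocols, RNA of 6 pools was amplified and given the dye Cy3, and each pool went to its own Agilent array. Per the file headers, Agilent Feature Extraction 10.7.3.1 gave the deposited intensity values, among them the processed signal, which has the background subtracted. The deposited value table holds log2 values whose normalization is not stated in those sources; it lists 28 of the 34 tested members.

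Probes were named through RefSeq accessions (assembly GRCm38.p6, names and promoter sequences only; the files' build is mm9). Of 39429 non-control probes 26424 had 1 symbol. Signals were log2-transformed and the array's 75th percentile of non-control spots was subtracted; outlier spots were left out. Probes well above background on all 3 arrays of a group were tested, and a gene's brightest such probe stood for it. limma 3.58.1 (R 4.3.3, lmFit and eBayes, two-sided) gave changes and Benjamini-Hochberg adjusted p over 19795 genes. The fit was tested on simulated data. The members, gene lists and tests were chosen with earlier results of these data known. Genes named by rule are every measured member, Arid3b, and up to 4 called genes with the smallest adjusted p of each further list. Any other gene given with a value or a call was picked with its values in view, whether or not the text says so there.

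Arrays with the same replicate number shared a slide, per the file headers, and their deviations from the group means correlated at 0.16, 0.39 and 0.28. The main fit, which gave the changes and adjusted p values unless another setting is named, did not pair the arrays. Pairing them by the replicate number as a block was an alternative, with 9 members lower. With 3 arrays a group, their number limits the precision.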

Additional observations from a re-analysis of the deposited data

How the results depend on the processing

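The count of lower members was 7 to 8 without each array in turn, 7 in the deposited value table, 9 with the replicate number (the slide) as a block, 10 with median scaling, 11 under normexp and with probes of a gene averaged, 15 under quantile normalization and 5 without a filter on dim probes, which tests 32530 genes. The pairing by replicate block otherwise changed the call of Urod and Trim10 alone among the genes named by rule. No member was higher by limma in any of the 13 alternatives. The median over members ranged from -0.39 to -0.27. Klf1, Gata1, Cited4, Bpgm and Gypc passed in all 13. Leaving out 1 array turned the sign of genes that had not passed: Hbb-b2 ranged from -0.34 to 0.15, Cpox from -0.0501 to 0.116, Rhd from -0.271 to 0.0687 and Ermap from -0.344 to 0.0400. Uros passed without wild type replicate 2 (adjusted p = 0.0434) and Ermap with the mean of its probes (0.0436). The cause was not tested. The dimmest members, Car1 and Epb42, had the largest standard errors.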
